A study of Mus musculus with 6 samples.

Results

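The genes described here are 35 genes of the interferon response and of antigen presentation on class I molecules, listed by symbol from a table of 25124 gene models. The rule uses no measured value, but the list was drawn up with earlier results of these data known. All 35 were in the table, and 31 of them had enough counts to be tested, among 14685 genes tested in all. Poly-A RNA of whole retina was sequenced in 6 libraries from C57BL/6J mice aged 4 months, 3 from wild-type mice (WT1A, WT2A and WT2B) and 3 from mice whose Elovl2 gene carries the C234W substitution (FS3A, FS3B and FS5A). ELOVL2 is an elongase of very long polyunsaturated fatty acids, needed to make docosahexaenoic acid, and the comparison asks how the retinal transcriptome differs when it is altered. The labels give no treatment, no sex and no zygosity, and they do not say whether a library held 1 animal or several. No label explains the prefix FS. It was read as C234W because 3 columns are marked WT and only the 3 C234W samples then remain, and every direction below rests on that reading.

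Type I interferons are recognised by the receptor chains Ifnar1 and Ifnar2, whose kinases Jak1 and Tyk2 activate STAT proteins. Stat2 and Irf9 belong to the complex ISGF3, which binds the interferon-stimulated response element (ISRE) and switches on antiviral genes such as the Ifit, Oas and Mx families. Interferon-gamma acts on the gamma-activated site (GAS) and is known for inducing Irf1, the guanylate-binding proteins, the immunoproteasome and class I molecules. The healthy neural retina is known for low display of class I molecules, and its microglia and Müller glia can respond to interferon.

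The libraries held 14184093 to 19298613 counts in gene models. The 35 genes took 0.0298 to 0.0473% of these counts. Levels are given as CPM, the count relative to the TMM-scaled library size, and a positive log2 fold change means a higher level in C234W. Of the markers of retina, Gnat1, the transducin of rod photoreceptors, was at 13440 to 33480 CPM in the 6 libraries, and Glul, the glutamine synthetase of Müller glia, at 2121 to 3355 CPM. WT1A stood apart from the other wild-type libraries: the chi-square per degree of freedom of its counts was 74.2 against WT2A and 65.9 against WT2B, while WT2A against WT2B gave 9.97. Markers of the pigment epithelium summed to 737 CPM in WT1A and 73.9 to 174 CPM in the other libraries. Nothing in the labels says that the libraries came from separate animals, and the names pair WT2A with WT2B and FS3A with FS3B; the spread behind each p-value is that between libraries and may be technical. In whole tissue, fewer cells of a type and less RNA per cell cannot be told apart.

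None of the 31 tested genes passed the threshold, an adjusted p under 0.05 over all genes tested, in the edgeR quasi-likelihood test. Over all genes the share that passed was 1.82%, with 0.293% higher and 1.53% lower in C234W. At an unadjusted p under 0.05 there were 4 of the 31, Stat2, Irf9, Gbp2 and Ifit2, each higher in C234W, against 25.9% of all genes (12.2% in that direction). limma-voom called none of them, with 1.63% of all genes called. DESeq2 called Stat2 and Irf9, both higher, with 12.7% of all genes called by that tool, 5% higher and 7.69% lower. No member was called with RLE scaling (1.57% of all genes called), upper-quartile scaling (1.36%), total-count scaling (0.00681%), a filter of 1 CPM in 3 libraries (2.14%) or the trend with gene length removed (0.00681%), nor without FS3B (0.00672%) or FS5A (0.0468%). The log2 fold change was positive in 16 of the 31 genes and negative in 15, with a median of 0.049, against 0.024 over all genes tested. With the trend of fold change with gene model length removed, the members' median was 0.19, against 0.0024 over all genes. The edgeR adjusted p ran from 0.0542 for Stat2 to 0.949 for Gbp3, and the median standard error was 0.375 on the log2 scale. Stat2 did not pass at a log2 fold change of 0.91 (SE 0.198), so differences well above the median standard error could go undetected. The groups did not overlap for 3 of the 31 genes (9.68%), Stat2, Irf9 and Ddx58, each with C234W higher, against 29.1% of all genes (12.6% with C234W higher), so members did not separate the genotypes more often than other genes did.

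**Figure D1:**
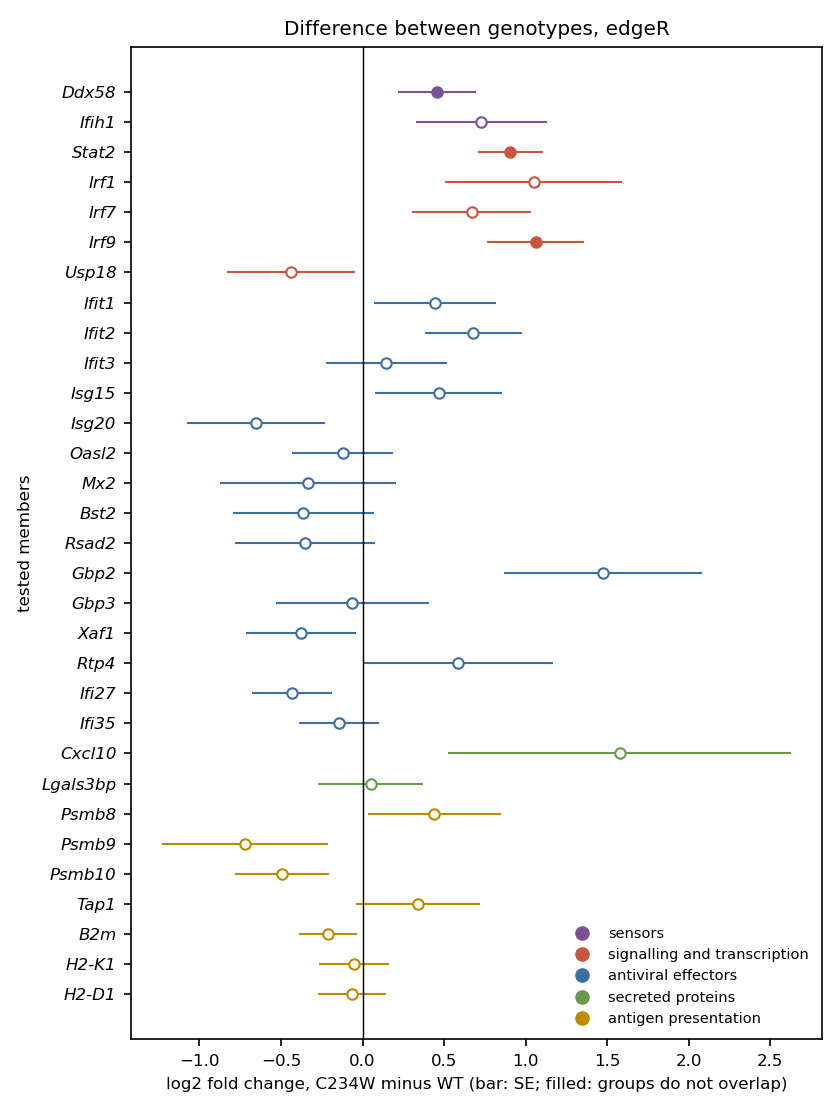
Log2 fold change (C234W minus wild type, horizontal axis, log2 units) with its standard error for the 31 tested genes, coloured by role; filled points mark genes whose groups do not overlap. Stat2 (0.91), Irf9 (1.06) and Ddx58 (0.46) are the filled points, and the class I genes H2-K1 and H2-D1 lie near 0.

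The sequence before the start of each gene shows what many of these genes share beyond their names. RefSeq promoters on GRCm38.p6, the assembly of mm10, were matched for 29 of the 35 genes at the start of the deposited gene model, from 250 bases before the start to 50 after it. The ISRE core, searched on both strands as 2 copies of GAAA with any 2 bases between them, was found in 13 of the 29 (44.8%) and in 3.44% of all 32851 promoters of the same length. The GAS letters TTCNNNGAA, which read the same on both strands, were found in 7 of the 29 (24.1%) and in 8.3% of all promoters. Bst2 and Oas1a held both, and the matches overlap in Bst2. A match is a description of the letters and does not show that a factor binds. The 250 bases before the start are printed for 6 of the genes that hold a match there, with each match in capitals. Stat2 belongs to the signalling complex, Irf1 is the GAS example, Isg15 holds 3 overlapping ISRE cores and B2m is an abundant antigen presentation gene. Gbp2 and Cxcl10 are the genes with the widest spread among C234W libraries.
Stat2: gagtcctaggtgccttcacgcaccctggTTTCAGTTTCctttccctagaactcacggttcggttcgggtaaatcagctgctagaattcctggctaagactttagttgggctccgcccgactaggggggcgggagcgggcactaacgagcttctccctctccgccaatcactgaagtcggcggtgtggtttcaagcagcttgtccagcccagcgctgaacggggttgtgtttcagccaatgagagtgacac
Irf1: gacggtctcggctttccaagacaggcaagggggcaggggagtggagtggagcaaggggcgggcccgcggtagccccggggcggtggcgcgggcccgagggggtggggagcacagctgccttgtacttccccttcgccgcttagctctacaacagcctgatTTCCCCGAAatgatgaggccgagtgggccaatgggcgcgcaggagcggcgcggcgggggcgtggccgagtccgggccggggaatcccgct
Isg15: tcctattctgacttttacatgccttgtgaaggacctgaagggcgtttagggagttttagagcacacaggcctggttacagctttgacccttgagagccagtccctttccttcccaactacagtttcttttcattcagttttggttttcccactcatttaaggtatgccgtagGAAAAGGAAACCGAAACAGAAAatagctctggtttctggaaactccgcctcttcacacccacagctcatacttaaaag
Gbp2: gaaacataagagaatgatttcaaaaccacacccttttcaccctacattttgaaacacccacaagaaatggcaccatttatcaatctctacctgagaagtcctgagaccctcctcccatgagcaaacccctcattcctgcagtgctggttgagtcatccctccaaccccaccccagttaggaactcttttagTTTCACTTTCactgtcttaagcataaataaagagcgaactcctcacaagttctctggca
Cxcl10: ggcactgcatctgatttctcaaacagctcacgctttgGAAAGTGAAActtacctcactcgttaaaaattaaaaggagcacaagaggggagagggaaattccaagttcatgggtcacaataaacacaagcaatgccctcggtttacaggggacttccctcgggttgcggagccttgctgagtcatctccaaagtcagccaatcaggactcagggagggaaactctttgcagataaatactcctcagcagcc
B2m: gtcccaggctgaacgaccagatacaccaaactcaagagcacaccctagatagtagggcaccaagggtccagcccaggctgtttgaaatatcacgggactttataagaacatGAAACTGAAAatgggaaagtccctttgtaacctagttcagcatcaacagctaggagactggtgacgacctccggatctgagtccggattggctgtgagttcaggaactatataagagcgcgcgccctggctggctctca
These windows are chr10:128270248-128270497 (plus strand), chr11:53769764-53770013 (plus), chr4:156200819-156201068 (minus), chr3:142620413-142620662 (plus), chr5:92348890-92349139 (minus) and chr2:122147437-122147686 (plus). Counted from the gene start, the core lies at -222 to -213 in Stat2, -213 to -204 in Cxcl10, -139 to -130 in B2m and -59 to -50 in Gbp2, and the GAS letters of Irf1 lie at -90 to -82. In Ddx58 and Ifih1 the core lies just after the start, at bases 3 to 12 and 33 to 42. No ISRE core or GAS letters were found in the windows of Irf7, Irf9, Oasl2, Xaf1, Ifi44, Lgals3bp, H2-K1, H2-D1, Psmb9, Psmb10 and Tap1. This says only that these letters are not in this window.

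The intracellular sensors of viral RNA were measured at low levels in both genotypes. Ddx58, which encodes RIG-I (chromosome 4, 40203777 to 40239825, minus strand), was at 5.18, 5.28 and 4.12 CPM in WT1A, WT2A and WT2B and at 6.79, 7.07 and 6.22 CPM in FS3A, FS3B and FS5A. All 3 C234W libraries lay above all 3 wild-type ones, by a small margin. This gave a log2 fold change of 0.46 (SE 0.238, edgeR adjusted p = 0.253), and 0.29 with the length trend removed. Ifih1, which encodes MDA5, was at 4.72, 3.01 and 1.62 CPM in wild type and at 6.9, 5.12 and 3.54 CPM in C234W, and the groups overlapped. WT2B was the lowest library for both sensors. The log2 fold change of Ifih1 was 0.73 (SE 0.403, edgeR adjusted p = 0.279), and ran from 0.44 without WT2B to 1.13 without WT1A.

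Among the genes that carry the interferon signal, 4 of 5 had higher means in C234W, and the 2 with the smallest p were partners in ISGF3. Stat2, the subunit that brings the activation domain (chromosome 10, 128270498 to 128292853, plus strand), was at 28.8, 27.1 and 21.4 CPM in wild type and at 55.7, 38.5 and 50.8 CPM in C234W. Every C234W library exceeded every wild-type library, FS5A included. Stat2 had a mean of 25.8 ± 3.86 CPM against 48.4 ± 8.9 CPM (SD, n = 3 each), a log2 fold change of 0.91 (SE 0.198, edgeR adjusted p = 0.0542), just outside the threshold. It passed without the filter on low counts (edgeR adjusted p = 0.0491, with 1.83% of all genes called), by DESeq2 (adjusted p = 0.00206) and without WT1A (edgeR adjusted p = 0.0219, with 18.5% of all genes called); without 1 of the other libraries the edgeR adjusted p was between 0.0841 and 0.24. The gene model of Apof overlaps the start of Stat2 on the same strand, and its level was 2.22% of that of Stat2.

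Irf9, the DNA-binding subunit of ISGF3 (chromosome 14, 55603985 to 55610030, plus strand), was at 10.7, 10.8 and 8.24 CPM in wild type and at 30.4, 17.7 and 14.1 CPM in C234W. The groups did not overlap, and FS3A was far above the other libraries. The means were 9.92 ± 1.45 and 20.8 ± 8.53 CPM (SD, n = 3 each), and the log2 fold change of Irf9 was 1.06 (SE 0.299, edgeR adjusted p = 0.0796; DESeq2 adjusted p = 0.0114). Leaving out FS3A lowered it to 0.69. Rnf31, chosen after its values were seen, ends 310 bases before Irf9 on the same strand and was at 21.5 ± 8.34 CPM in wild type and 36.9 ± 7.19 CPM in C234W (SD, n = 3 each); whether tags that run on from it add to Irf9 was not tested.

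Irf7, the factor that amplifies type I interferon production, was at 42.8, 15 and 17.3 CPM in wild type and at 40.4, 33.2 and 45.7 CPM in C234W. WT1A was the only wild-type library among the C234W values. The log2 fold change of Irf7 was 0.67 (SE 0.365, edgeR adjusted p = 0.274), and 1.31 without WT1A (SE 0.197, edgeR adjusted p = 0.0127). Irf7 and Stat2 were the 2 members called in that fit, which called 18.5% of all genes. For Irf7 the value was 0.40 without WT2A and 0.47 without WT2B (edgeR adjusted p = 0.582 and 0.577). Irf1, a factor induced by interferon-gamma, was at 5.85, 3.23 and 5.52 CPM in wild type and at 10.9, 16 and 2.68 CPM in C234W. FS3A and FS3B were above all wild-type libraries and FS5A was below all of them. The log2 fold change of Irf1 was 1.05 (SE 0.543, edgeR adjusted p = 0.251), 0.51 without FS3B and 1.48 without FS5A. Usp18, the protease that removes ISG15 and dampens the receptor, had 0.61 to 1.4 CPM in the 6 libraries and a log2 fold change of -0.44 (SE 0.394, edgeR adjusted p = 0.507).

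**Figure D2:**
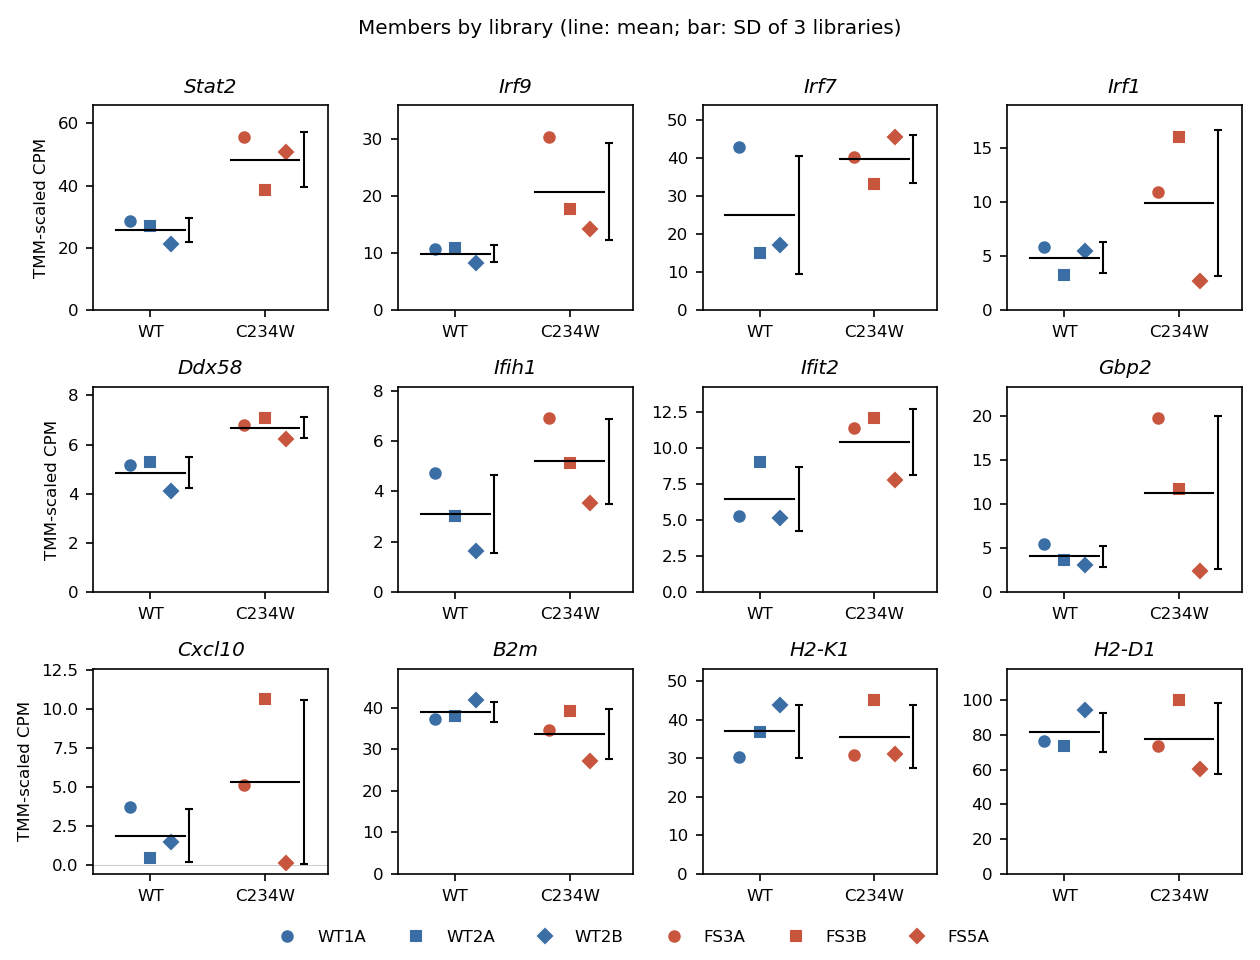
TMM-scaled CPM (vertical axis, starting at or just below 0) of 12 members in each of 6 libraries, wild type in blue and C234W in red, with the mean of 3 libraries as a line and the SD as a bar. Stat2, Irf9 and Ddx58 separate the genotypes; in Irf1, Gbp2 and Cxcl10 the library FS5A lies at or below the wild-type libraries while FS3A and FS3B lie above them.

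The antiviral effectors had log2 fold changes of both signs, and none passed the test. Of 19 genes 15 were tested; 6 had a positive and 9 a negative log2 fold change, with a median of -0.12, and 0 had groups that did not overlap. With the length trend removed their median turned to 0.045. Ifit3, which binds with its relatives to viral RNA ends, was at 12.5, 14.8 and 13.9 CPM in wild type and at 24.7, 13.2 and 7.56 CPM in C234W. The wild-type values were close together, and the C234W libraries spanned from the highest to the lowest of the 6. Its log2 fold change was 0.15 (SE 0.371, edgeR adjusted p = 0.834). Ifit3 has a near-identical copy, Ifit3b, and tags that map to both copies were not counted, so its level is uncertain.

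Ifit2, a relative that is known to restrain translation, was at 5.25, 8.99 and 5.15 CPM in wild type and at 11.4, 12.1 and 7.8 CPM in C234W. FS3A and FS3B exceeded all wild-type libraries, and FS5A lay between WT1A and WT2A. For Ifit2 it was 0.68 on the log2 scale (SE 0.297, edgeR adjusted p = 0.19). Ifi27, a mitochondrial interferon-induced protein, was at 12.4, 9.8 and 13.7 CPM in wild type and at 8.7, 10.7 and 6.95 CPM in C234W, a log2 fold change of -0.43 (SE 0.244, edgeR adjusted p = 0.288) that was -0.10 with the length trend removed. Oasl2, a member of the oligoadenylate synthetase-like family, was at 8.04, 8.29 and 12.1 CPM in wild type and at 9.42, 11.2 and 5.37 CPM in C234W. Both genes had their lowest value in FS5A and their highest in WT2B.

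Gbp2, a guanylate-binding protein induced by interferon-gamma, falls outside the rule for named genes and was singled out after its values were seen. It was at 5.45, 3.66 and 3.09 CPM in wild type and at 19.7, 11.7 and 2.44 CPM in C234W. FS3A and FS3B were well above the wild-type libraries, and FS5A was the lowest of the 6. For Gbp2 the log2 fold change was 1.48 (SE 0.607, edgeR adjusted p = 0.17), 1.94 without FS5A (edgeR adjusted p = 0.0814) and 0.82 without FS3A (edgeR adjusted p = 0.483). The other tested effectors (Ifit1, Isg15, Isg20, Mx2, Bst2, Rsad2, Gbp3, Xaf1, Rtp4 and Ifi35) had log2 fold changes from -0.65 for Isg20 to 0.59 for Rtp4, with edgeR adjusted p from 0.352 for Isg20 to 0.949 for Gbp3.

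The remaining 4 effectors, Mx1, Oas1a, Oas2 and Ifi44, were too low to test. Oas2, a sensor of double-stranded RNA, had 1, 1 and 0 counts in wild type and 9.5, 6.5 and 4.5 in C234W. After rounding these were 2 counts against 20, a ratio of 8.47 after scaling (95% exact interval 2.06 to 74.8, which covers counting error only). The interval pools counts over libraries and is no test of genotype. Oas2 falls outside the rule for named genes. The interval was computed only for this gene, whose groups did not overlap, and that choice favours a large ratio. No interval was computed for Mx1, Oas1a and Ifi44, whose groups overlapped. Oas1a had 1, 0.5 and 0 counts in wild type and 1, 8 and 0 in C234W, and Ifi44 had at most 3 counts in a library. Mx1, which is known to be inactivated by a deletion in C57BL/6 mice, had 0, 1 and 3 counts in wild type and 0, 1 and 0 in C234W. The deposited gene models of Mx1 and Mx2 carry non-coding RefSeq identifiers.

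Of the secreted proteins, Cxcl10 had the largest log2 fold change among the members and the widest spread. This chemokine, which draws T cells and is induced by interferon-gamma, was at 3.72, 0.431 and 1.47 CPM in wild type and at 5.15, 10.7 and 0.122 CPM in C234W. FS3B was the highest and FS5A the lowest library, so C234W spanned the whole range. For Cxcl10 the log2 fold change was 1.58 (SE 1.05, edgeR adjusted p = 0.371). It was 0.57 without FS3B and 2.63 without WT1A, and neither passed (edgeR adjusted p = 0.784 and 0.173). Lgals3bp, a secreted glycoprotein that binds galectins, was at 16.9, 7.75 and 13 CPM in wild type and at 10.8, 17.4 and 10.2 CPM in C234W, a log2 fold change of 0.05 (SE 0.325, edgeR adjusted p = 0.943).

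The class I molecules were the most abundant members per length and had log2 fold changes close to 0. Per kilobase of gene model, H2-D1 had a mean of 47.2 CPM in wild type and 45.1 in C234W, B2m 45.8 and 39.5, and H2-K1 22.7 and 21.8. Of the other members, Irf7 was the highest on this scale, at 13.6 and 21.5 CPM per kilobase. H2-D1, a class I heavy chain (chromosome 17, 35263094 to 35267497, plus strand), was at 76.4, 73.8 and 94.4 CPM in wild type and at 73.4, 100 and 60.1 CPM in C234W. H2-K1, another class I heavy chain (chromosome 17, 33996012 to 34000333, minus strand), was at 30.3, 36.9 and 44 CPM in wild type and at 30.8, 45.2 and 31 CPM in C234W. FS3B was the highest library for both heavy chains, and the other C234W libraries lay among or below the wild-type values.

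The log2 fold changes were -0.07 (SE 0.208) for H2-D1 and -0.05 (SE 0.215) for H2-K1, with edgeR adjusted p = 0.87 and 0.901; both turned positive, to 0.12, when libraries were scaled to total counts, and to 0.09 and 0.13 with the length trend removed. The gene model of H2-L lies within that of H2-D1 and was counted at 64.8% of its level, and class I genes are near-identical copies, so their levels are uncertain. B2m, the light chain of all class I molecules (chromosome 2, 122147687 to 122153082, plus strand), was at 37.3, 37.9 and 41.8 CPM in wild type and at 34.6, 39.2 and 27.1 CPM in C234W. FS5A was its lowest library. The log2 fold change of B2m was -0.21 (SE 0.179, edgeR adjusted p = 0.479), and 0.19 with the length trend removed. It ran from -0.33 without FS3B to -0.08 without FS5A.

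**Figure D3:**
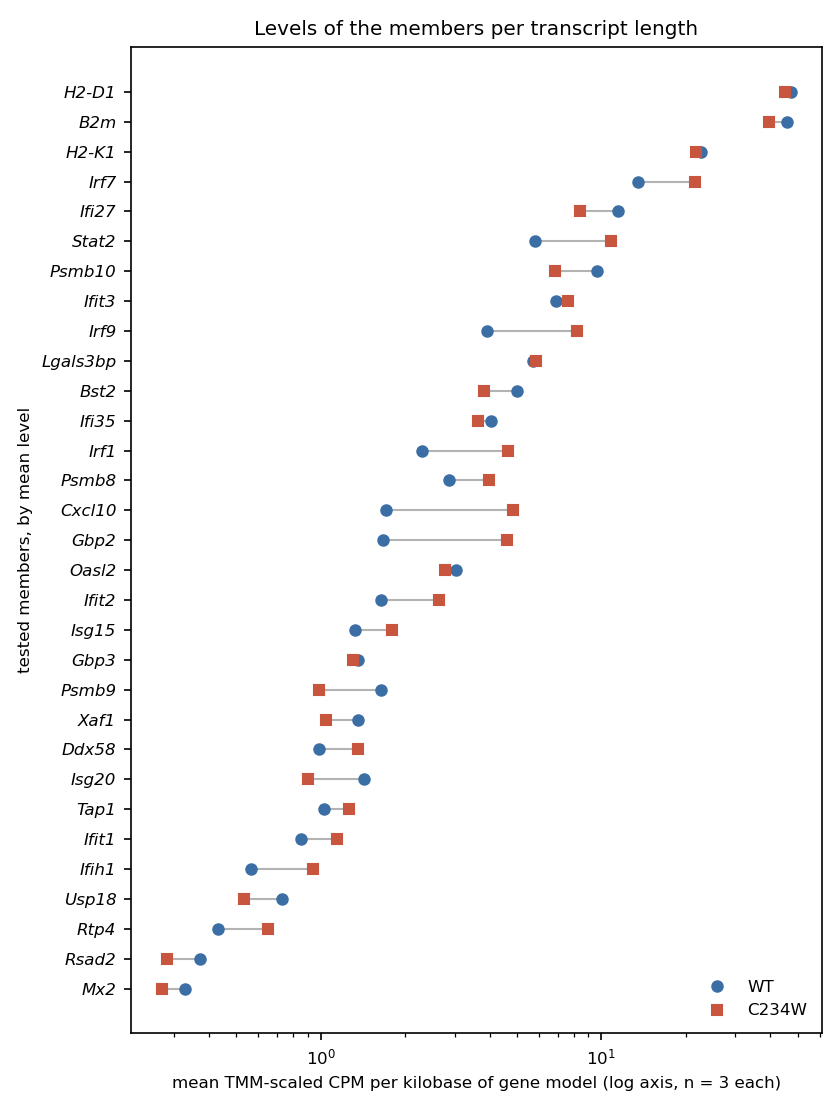
Mean level of the 31 tested genes per kilobase of gene model (horizontal log axis, TMM-scaled CPM per kilobase, n = 3 per genotype), wild type as blue circles and C234W as red squares, ordered by level. H2-D1, B2m and H2-K1 stand at the top with their symbols close together, while Stat2, Irf9, Irf1, Gbp2 and Cxcl10 have the C234W symbol to the right.

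The immunoproteasome subunits, which replace the constitutive catalytic subunits and shape peptides for class I molecules, had log2 fold changes of both signs, and none passed the test. Psmb10 was at 8.04, 15.1 and 13.2 CPM in wild type and at 10.1, 9.3 and 6.46 CPM in C234W (log2 fold change -0.49, SE 0.289, edgeR adjusted p = 0.305). Psmb9, with the most negative log2 fold change of the members, was at 0.531, 1.78 and 1.62 CPM in wild type and at 0.766, 1.04 and 0.549 CPM in C234W (-0.72, SE 0.509, edgeR adjusted p = 0.393; -0.29 with the length trend removed). WT1A was low for both, so the groups overlapped. Without WT1A the values were -1.07 for Psmb9 and -0.71 for Psmb10, and without WT2A -0.39 and -0.29. Psmb8 had a log2 fold change of 0.44 (SE 0.41, edgeR adjusted p = 0.524), and the peptide transporter Tap1 one of 0.34 (SE 0.383, edgeR adjusted p = 0.602).

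The constitutive counterparts Psmb5, Psmb6 and Psmb7 were lower in every C234W library than in any wild-type library, although none passed (0 of 3 by edgeR, 3 at an unadjusted p under 0.05, 2 by DESeq2). Over all genes, 16.4% had wild type higher without overlap, 13.7% were lower at an unadjusted p under 0.05 and 7.69% were lower by DESeq2. Psmb6 had a log2 fold change of -0.67 (SE 0.144, edgeR adjusted p = 0.0531) and Psmb7 of -0.63 (SE 0.136, edgeR adjusted p = 0.0534); with the length trend removed these were -0.34 and -0.27, and that of Psmb5 went from -0.47 to -0.09. The ratio of Psmb8 to Psmb5 in CPM was 0.0435, 0.08 and 0.0296 in wild type and 0.138, 0.0837 and 0.0594 in C234W. The ratio overlapped between genotypes, as did those of Psmb9 to Psmb6 and of Psmb10 to Psmb7.

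Many members were high in FS3A and FS3B and low in FS5A. FS3A and FS3B both exceeded FS5A for 26 of the 31 genes (83.9%), against 33.7% of all genes tested. FS5A was the lowest of the 6 libraries for 15 of the 31 (48.4%), against 15.4%, and below every wild-type library for 16 (51.6%), against 30.7%. The highest value lay in FS3A for 10 genes, in FS3B for 9 and in FS5A for 2, Irf7 and Mx2. FS3A and FS3B both exceeded every wild-type library for 10 of the 31 (32.3%), against 18.8% of all genes, and FS5A did so as well for 3 of these 10. The mean deviation of the 31 genes, on log2(CPM + 0.5) around each gene's mean, was 0.35 in FS3A, 0.27 in FS3B and -0.40 in FS5A. In the wild-type libraries it was -0.07 (WT1A), -0.11 (WT2A) and -0.04 (WT2B). These shares are descriptions without a test. FS3A and FS3B share a name number. Over all genes the chi-square per degree of freedom was 30.6 for FS3A against FS5A and 47.65 for FS3A against FS3B. It was 61.9 for FS3B against FS5A. Whether the shared name number bears on the pattern was not tested. The exceptions to the first count were Stat2, Irf7, Mx2, Ifi35 and H2-K1, and FS5A was the highest library for Irf7 and Mx2 and the second for Stat2.

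**Figure D4:**
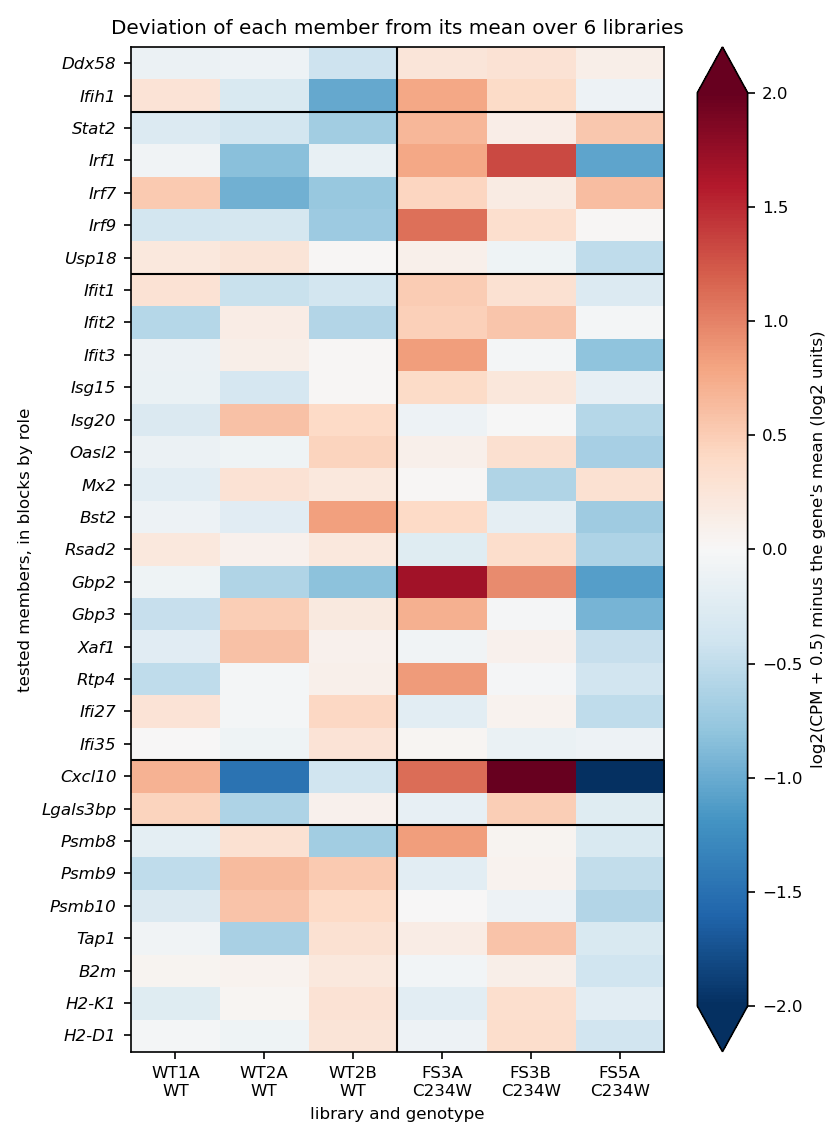
Deviation of log2(CPM + 0.5) from each gene's mean (colour scale, log2 units, capped at 2) for the 31 tested genes in rows, in blocks by role, and the 6 libraries in columns. FS5A is mostly blue, apart from Stat2, Irf7, Mx2, Ddx58 and Irf9, which are above their mean there, and the darkest red cells are Gbp2 in FS3A and Irf1 and Cxcl10 in FS3B.

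Other genes of the pathway were read from lists that hold no member. The counts below stand against 12.2% of all genes higher and 13.7% lower at an unadjusted p under 0.05, and 5% higher and 7.69% lower by DESeq2. Groups did not overlap for 12.6% of all genes with C234W higher and for 16.4% with wild type higher. Of 16 interferon and receptor genes, 8 had 0 counts in all libraries, Ifnb1 and Ifng among them, and 5 receptor chains were tested. None of the 5 passed by edgeR or DESeq2, and 1, Ifnar1, was at an unadjusted p under 0.05. Ifnar1 was at 47.4, 33.9 and 32.7 CPM in wild type and at 55.4, 50.5 and 47.9 CPM in C234W (log2 fold change 0.43, SE 0.185, edgeR adjusted p = 0.182). Ifnar2 had a log2 fold change of 0.51 (SE 0.312, edgeR adjusted p = 0.323). FS5A was below all wild-type libraries for Ifnar2, at 4.39 CPM.

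Of 15 other signalling genes none passed by edgeR, 4 were higher and 2 lower at an unadjusted p under 0.05, and DESeq2 called Stat3, Irf3 and Ptpn2, all higher. Irf3, the factor that first switches on interferon genes, was at 29.5, 22 and 17.5 CPM in wild type and at 49.9, 30.5 and 46.7 CPM in C234W (log2 fold change 0.88, SE 0.252, edgeR adjusted p = 0.0825). Its groups did not overlap, and neither did those of Ptpn2, a phosphatase of Jak and Stat proteins (0.77, SE 0.253, edgeR adjusted p = 0.11). The groups of Jak1 did not overlap either, with wild type higher (-0.35, SE 0.149, edgeR adjusted p = 0.178). Jak1 and Ptpn6 were the 2 lower genes at an unadjusted p under 0.05. Of 14 nucleic acid sensing genes 9 were tested, 8 of them with a positive log2 fold change, and none passed by edgeR or DESeq2, with 1 at an unadjusted p under 0.05. That gene was Tmem173, which encodes STING, at 0.731, 0.484 and 0.0736 CPM in wild type and at 3.45, 2.18 and 0.427 CPM in C234W (edgeR adjusted p = 0.133). Mavs, the adaptor of RIG-I and MDA5, had a log2 fold change of 0.82 (SE 0.366, edgeR adjusted p = 0.195), and 1.45 without WT1A (edgeR adjusted p = 0.0127). The fit without WT1A called 18.5% of all genes.

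Among 53 other interferon-stimulated genes 40 were tested, and 35 of these had a positive log2 fold change, against 51.9% of all genes. Their median was 0.58. None passed by edgeR, 10 were higher and 0 lower at an unadjusted p under 0.05, and DESeq2 called Parp14, Gbp5 and Slfn5. Parp9, an ADP-ribosyltransferase, was at 2.52, 1.72 and 2.8 CPM in wild type and at 4.71, 4.46 and 4.27 CPM in C234W. Gbp7, a guanylate-binding protein, was at 2.06, 1.51 and 1.25 CPM in wild type and at 3.83, 3.98 and 2.44 CPM in C234W. Neither gene overlapped between groups, with log2 fold changes of 0.95 (SE 0.292) and 1.09 (SE 0.346) and edgeR adjusted p = 0.0946 and 0.102. The mean deviation of the 40 genes was 0.60 in FS3A, 0.39 in FS3B and -0.25 in FS5A, and between -0.26 and -0.23 in the wild-type libraries, so FS5A lay with the wild type.

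Most of the other antigen presentation genes had negative log2 fold changes. Of 23 genes 20 were tested, 16 of them with a negative log2 fold change and a median of -0.33. With the length trend removed the median was -0.20. None passed by edgeR or DESeq2, with 1 higher and 1 lower at an unadjusted p under 0.05. Calr, a chaperone of class I folding, was at 257, 257 and 297 CPM in wild type and at 171.1, 234.2 and 180 CPM in C234W (log2 fold change -0.47, SE 0.17, edgeR adjusted p = 0.135). Tap2, the partner of Tap1 in the peptide transporter, was at 10.3, 13 and 9.93 CPM in wild type and at 17.7, 17.2 and 14 CPM in C234W (0.56, SE 0.208, edgeR adjusted p = 0.144). Both genes had groups that did not overlap, as did Tapbp and H2-DMa, with wild type higher. Of the 20 tested genes, 1 had C234W higher without overlap and 3 had wild type higher.

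Markers of other cells moved with some of these patterns. The 10 gliosis genes of Müller glia deviated on average by 1.67 in FS3A, 1.08 in FS3B and -0.97 in FS5A, and by 0.16 (WT1A), -0.95 (WT2A) and -0.99 (WT2B) in wild type. Gfap, their best-known member, was at 248, 99.4 and 26.5 CPM in FS3A, FS3B and FS5A and at 46.8, 25.3 and 20.4 CPM in wild type. None of the 10 passed by edgeR, 4 were higher at an unadjusted p under 0.05 and 1 by DESeq2, with 0 whose groups did not overlap. The 2 libraries high for gliosis genes were thus those high for Gbp2, Irf1, Cxcl10 and the other interferon-stimulated genes. The 12 markers of microglia and macrophages summed to 67.3, 104 and 81.5 CPM in FS3A, FS3B and FS5A and to 81.9, 86.8 and 120 CPM in wild type, and 0 of 12 passed by edgeR or DESeq2, with 0 at an unadjusted p under 0.05. The 12 leukocyte markers summed to 7.23, 3.08 and 2.38 CPM in C234W and to 0.996, 1.99 and 2.35 CPM in wild type. Cd3e, Cd3g, Ms4a1 and Nkg7 among them were at 0 in all libraries, and in FS3A S100a8 and S100a9 made up 2.03 and 3.61 CPM. On the same scale the 10 endothelial markers averaged -0.83 in WT1A, 0.06 to 0.07 in WT2A and WT2B, and 0.21 to 0.26 in C234W. None of these 10 passed by edgeR, 3 were higher at an unadjusted p under 0.05, and DESeq2 called 3 (Pecam1, Esam and Flt1), whose groups did not overlap. Of all genes, 12.2% were higher at an unadjusted p under 0.05, 5% were higher by DESeq2 and 12.6% had C234W higher without overlap. The part of these cells in the members' values was not tested.

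**Figure D5:**
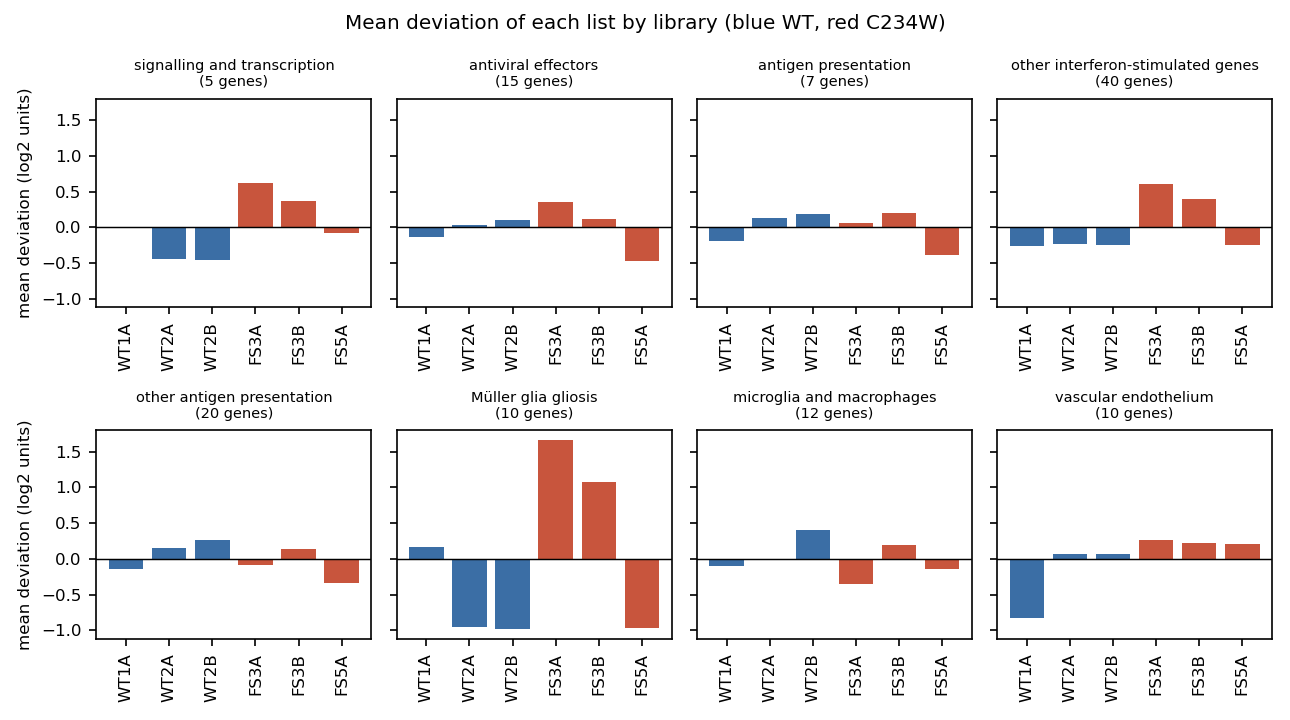
Mean deviation of log2(CPM + 0.5) from each gene's mean (vertical axis, log2 units) for 8 lists in each of 6 libraries, wild type in blue and C234W in red. The other interferon-stimulated genes reach 0.60 and 0.39 in FS3A and FS3B and -0.25 in FS5A, the gliosis genes reach 1.67, 1.08 and -0.97 in the same libraries, and the microglial markers are at -0.35, 0.19 and -0.14.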

How the data were processed

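Per the labels' protocols, poly-A RNA of whole retina was made into strand-specific TruSeq libraries. Per the series' design text and the file headers, the authors aligned reads to mm10 and used HOMER (4.11) to count unique tags over exons on the minus strand setting, 1 isoform per locus, and deposited estimated counts that are not normalized, in steps of 0.5. The submitters' processing notes name STAR 2.7.8a. All 6 columns were used.

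Counts were rounded and fitted across all genes with edgeR (4.0.16, R 4.3.3): filterByExpr, TMM, quasi-likelihood test with robust dispersion, genotype only, Benjamini-Hochberg adjustment. CPM are TMM-scaled over tested genes. limma-voom (3.58.1), DESeq2 (1.42.0), other scalings and filters, leaving out each library, and a loess offset (span 0.3) on gene model length, called the length trend above, were alternatives. Scripts were tested on simulated data.

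Values by library are given for the 4 most abundant members of each role, for any member past the threshold, and for the extreme log2 fold changes; in each pathway list the 2 genes with the smallest p are named. The members and lists were chosen with earlier results of these data known.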

Additional observations from a re-analysis of the deposited data

How the results depend on the processing

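The count of members past the threshold was 0 under RLE, upper-quartile and total-count scaling, a filter of 1 CPM in 3 libraries, limma-voom, summed libraries, the length trend and unrounded counts (chosen after seeing the data), 1 without a filter and 2 by DESeq2. Leaving out 1 library gave 0 to 2 members (2 without WT1A, 0 without any other). It gave 0 to 10 other pathway genes (10 without WT1A). The fit without WT1A called 18.5% of all genes. DESeq2 called 8 of the other pathway genes and 12.7% of all genes. Over all genes the count of 267 became 1 with total-count scaling, 1754 by DESeq2, 0 at an adjusted p under 0.01, 0 when libraries that share a name number were summed and 1 with the length trend removed, and ran from 0 (without WT2A, WT2B or FS3A) to 2771 (without WT1A) with 1 library left out. Total-count scaling moved the median of all genes to 0.21, and that of the members to 0.25; the members' median ran from -0.02 without FS3A to 0.28 without FS5A, and was -0.01 by limma-voom and -0.04 with libraries summed.

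Signs turned in the genes below, none of them past the threshold, and the cause was not tested. With total-count scaling Oasl2 was 0.064, H2-D1 0.12 and H2-K1 0.12. By limma-voom Ifit3 was -0.0077, and with libraries summed Ifit3 was -0.038 and Lgals3bp -0.11. With the length trend removed H2-D1 was 0.094, H2-K1 0.13, B2m 0.19, Bst2 0.045 (from -0.36) and Ifi35 0.11 (from -0.15), and the members' median was 0.19. With 1 library left out, Oasl2 ran from -0.35 to 0.12, H2-D1 from -0.29 to 0.089, H2-K1 from -0.26 to 0.089, Ifit3 from -0.39 to 0.46 and Lgals3bp from -0.24 to 0.34. No paired analysis was possible because the columns carry no replicate number of the labels. Depth limits the low members: 4 had too few counts to test.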
